A study of Mus musculus with 2 samples.

Results

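The transcripts described here were the predicted non-coding RNAs of RefSeq, NCBI's reference collection of sequences. Their accessions begin with XR_, which marks a model built by automated annotation from aligned RNA evidence, whereas NR_ marks a non-coding RNA that curators have accepted. Members were the non-control probes whose name holds XR_ followed by digits. There were 12146 such probes among 97836 non-control probes, each for a different accession and each printed as 2 spots, and 873 probes with an NR_ accession served as the curated comparison.

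RNA came from whole mammary gland (labelled breast) of female mice. The control was labelled miR-34a fl/fl, mice whose miR-34a gene is flanked by loxP sites and intact. The knockout was labelled miR-34a -/- and came from crossing these floxed mice with mice that express Cre recombinase under control specific to the mammary gland. Both groups therefore carried the floxed allele, and cells of the gland that do not express Cre keep the gene. The promoter of the Cre transgene, the age of the mice and the number of mice behind each array are not given in the sources used here. There was 1 one-colour array per genotype and no replicate, so every difference below compares these 2 arrays and has no p-value. The study asked which mRNAs and long non-coding RNAs differ with loss of miR-34a. No probe could be matched to the miR-34a gene, so the genotype label was not checked. The mRNA probes carry no gene name in the files, and tissue markers could be read only through predicted transcripts beside them.

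Long non-coding RNAs are transcripts without a long open reading frame. They are transcribed by RNA polymerase II, often spliced, and usually less abundant and more restricted to particular tissues than mRNAs. Many start beside a protein-coding gene, from the opposite strand or from a shared promoter, and for most predicted models no function is known. miR-34a is a microRNA that p53 activates and that lowers mRNAs of cell cycle and survival genes through its seed, bases 2 to 8 of the mature strand. Its mature sequence in RefSeq (build GRCm38.p6, chr4:150068473-150068494, plus strand) is shown because it is the molecule removed, with the seed in capitals.
mmu-miR-34a-5p: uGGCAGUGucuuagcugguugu

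RefSeq's table of genes for assembly GRCm38.p6 held 3816 of the 12146 XR accessions (31.4%), which belonged to 3481 genes. Of these accessions 3811 were classed there as lncRNA, 2 as misc_RNA and 3 as protein-coding, so a predicted non-coding accession had a coding gene behind it in a few cases. The other accessions are named by their accession only.

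The promoters of 4 genes with very large differences are shown first, because all but one of the windows hold a motif searched for and they differ widely in CpG content. Each runs from 250 bases before to 50 bases after the gene's start, 5′ to 3′ along the gene's strand, from RefSeq on GRCm38.p6. Capitals mark the 4 motifs searched on both strands, which were TATAAA, the box CCAAT, the box GGGCGG and the site TGACTCA. Gm32255 (chr10:67536131-67536430, minus strand) was lower in the knockout. Gm35639 (chr3:92573571-92573870, plus strand) was above background in the control only. Gm39540 (chrX:152009391-152009690, plus strand) and Gm40921 (chr13:38259662-38259961, minus strand) were higher in the knockout.
Gm32255: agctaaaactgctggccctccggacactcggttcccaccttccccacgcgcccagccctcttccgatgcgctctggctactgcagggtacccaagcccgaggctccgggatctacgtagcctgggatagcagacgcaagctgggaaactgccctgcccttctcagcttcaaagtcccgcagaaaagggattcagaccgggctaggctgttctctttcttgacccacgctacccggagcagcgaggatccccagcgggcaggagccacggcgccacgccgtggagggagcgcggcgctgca
Gm35639: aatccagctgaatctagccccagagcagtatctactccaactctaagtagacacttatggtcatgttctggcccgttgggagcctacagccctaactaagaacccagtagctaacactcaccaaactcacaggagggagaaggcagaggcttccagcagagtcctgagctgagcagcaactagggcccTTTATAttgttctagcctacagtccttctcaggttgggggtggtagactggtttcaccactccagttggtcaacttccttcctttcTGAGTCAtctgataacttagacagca
Gm39540: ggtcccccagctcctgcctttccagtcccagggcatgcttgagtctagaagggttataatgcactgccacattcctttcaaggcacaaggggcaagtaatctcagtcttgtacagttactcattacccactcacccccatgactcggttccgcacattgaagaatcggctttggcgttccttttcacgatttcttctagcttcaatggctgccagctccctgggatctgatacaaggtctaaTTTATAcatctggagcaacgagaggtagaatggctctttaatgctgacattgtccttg
Gm40921: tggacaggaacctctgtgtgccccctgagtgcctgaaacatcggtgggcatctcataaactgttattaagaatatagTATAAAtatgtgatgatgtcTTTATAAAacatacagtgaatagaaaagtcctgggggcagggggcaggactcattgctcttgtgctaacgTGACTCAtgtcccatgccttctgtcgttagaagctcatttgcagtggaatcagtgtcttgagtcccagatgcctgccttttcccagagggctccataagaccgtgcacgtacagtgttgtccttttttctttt

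The Gm32255 window held 23 CpG dinucleotides and none of the 4 motifs. Gm39540 held a TATAAA and 6 CpG, Gm40921 the TATA box and the AP-1 site with 5 CpG, and Gm35639 the same pair with 1 CpG. TATAAA is the core of the TATA box, the second motif the CCAAT box, GGGCGG the GC box bound by Sp1 family factors and the last one the AP-1 site. Overlapping matches, as in the longer capital run of Gm40921, count once per window. Over 3327 promoters of 2546 XR genes, 17.2% held TATAAA, 36.1% CCAAT, 12.4% GGGCGG and 6.16% TGACTCA. Over all 32851 promoters of the same length in the table the shares were 13.6%, 37.4%, 35.7% and 5.20%. The 4 windows printed were chosen partly for their motifs, so their matches cannot be set against these shares. A match is a description of the letters only. XR gene promoters were poorer in CpG, with a median of 4 against 7 over all promoters and 13 over protein-coding ones, and 9.86% held 12 or more against 39.6% of all. Promoters of all lncRNA genes in the table were much alike, with a median of 4 CpG, 12 or more in 15.3%, TATAAA in 15.5% and GGGCGG in 16.3%.

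Detection is described first, since it sets how many members have a difference at all. A spot was above background when the scanner software marked it well above background, and a probe was measured when all its usable spots were. Usable spots on both arrays remained for 12137 XR probes and 869 NR probes, and 9 XR probes had none on at least 1 array. The scanner marked 63.9% (control) and 61.9% (knockout) of XR spots well above background, against 77.3% and 75.4% of all non-control spots. No XR spot was saturated.

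Of the 12137 XR probes, 6745 (55.6%) were measured on both arrays and 3585 (29.5%) were below background on both. A further 289 (2.38%) were measured in the control alone and 113 (0.931%) in the knockout alone, while 1405 (11.6%) had spots that disagreed. Among NR probes 548 of 869 (63.1%) were measured on both arrays, and among all probes 69405 of 97373 (71.3%). Predicted transcripts were thus detected less often than curated ones on this pair of arrays, by a gap for which the design gives no test. Because the 2 spots of a probe must both pass, a probe with 1 spot passes more easily, and all XR probes have 2. With 2 usable spots on each array, 55.5% of 12109 XR probes and 63.0% of 430 NR probes were measured on both, so the gap was as large at equal spot number. Spots disagreed for 6.51% of these NR probes.

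The signal distribution of the members was low and broad. The unscaled processed signal of an XR probe had a median of 33.1 on the control array, with the middle of the range from 7.05 (25th percentile) to 109 (75th) and 95% of probes under 554. On the knockout array the median was 25.8, the quartiles 5.84 and 84.7 and the 95th percentile 446. The knockout array was dimmer as a whole, and each array's own 75th percentile over all probes, 8.36 for the control and 7.92 for the knockout in log2 units, was subtracted to give the levels used below. On that scale the XR median was -3.35 in the control and -3.27 in the knockout, against -2.85 and -2.90 for NR and -1.93 and -1.94 for all probes. Only 8.63% of XR probes in the control and 9.22% in the knockout lay above the array's 75th percentile, against 14.5% and 14.4% of NR probes. Probe brightness also depends on the probe's own sequence, so these are distributions of classes and no level of one transcript is set against another.

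The detection mark is set from the same signal as the level, so the share that passed rose with level in both classes by construction. In the control, among probes with 2 usable spots and a level from -4 to -3, 1594 of 1630 XR probes (97.8%) and 47 of 48 NR probes (97.9%) were measured. From -5 to -4 the shares were 22.0% and 21.6%, and no probe of either class below -5 was measured. In the knockout, levels from -4 to -3 gave 87.8% of XR and 85.4% of NR probes, and levels from -5 to -4 gave 2.64% and 6.45%.

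Spots of a probe agreed closely where the probe was measured. The median SD between the 2 spots of an XR probe was 0.11 in the control and 0.12 in the knockout (log2), against 0.09 on both arrays over all probes. Spots lay 2-fold or more apart for 0.639% and 0.892% of measured XR probes. These SDs cover spots on 1 array, not animals.

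The difference, knockout minus control, could be taken for the 6745 XR probes measured on both arrays. A probe counted as called once its difference reached 2-fold, by size alone. Of these probes 281 (4.17%) were at least 2-fold higher in the knockout and 193 (2.86%) at least 2-fold lower, while 6271 (93.0%) lay within 2-fold. The background over all 69405 probes measured on both arrays was 4.45% higher and 4.54% lower, and among NR probes 22 of 548 (4.01%) were higher and 20 (3.65%) lower. The share of higher XR probes was therefore near the background, and the share of lower ones was below it. That low share was not particular to XR probes. Probes for transcripts of the NONCODE collection had 4.11% higher and 3.05% lower, while Agilent catalogue probes had 4.83% and 5.87%. In bulk tissue, fewer cells of a type and less RNA per cell cannot be told apart, and this holds for every difference below. Scaling decided the balance: of the called XR probes 59.3% were higher, but with the added spike-in RNAs set equal on both arrays 111 were higher and 460 lower, so that 19.4% were higher.

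The median XR difference was 0.14 (log2), against 0.10 over all probes, with quartiles of -0.15 and 0.42 and 5th and 95th percentiles of -0.77 and 0.93. Of the 6745 probes 4256 (63.1%) were above 0, against 58.6% of all probes. The spike-in scaling moved every difference by -0.36 and turned the XR median to -0.22. Being 1 constant shift, it left the XR median 0.03 above that of all probes by construction. With quantile and loess scaling, which can change this gap, it was 0.06 and 0.05. At 4-fold, 30 XR probes were higher and 38 lower, at 8-fold 5 were higher and 10 lower, and at 16-fold none was higher and 2 were lower. Over all probes the counts were 268 higher and 707 lower at 4-fold, 34 and 240 at 8-fold and 5 and 90 at 16-fold, so the lean of large differences to lower was also present, and wider, over all probes. Most of that lean lay in the Agilent catalogue probes, with 120 higher and 502 lower at 4-fold. Probes for NONCODE transcripts had 66 and 85.

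The calls varied with the level of the probe and with the agreement of its spots. Below a mean level of -3, 61 of 1232 XR probes (4.95%) were higher and 21 (1.70%) lower, against 4.65% and 2.18% of all probes there. Above a mean level of 0, 4.51% of 1064 XR probes were higher and 2.91% lower, against 5.13% and 4.06%. In all 5 ranges of level the share of lower XR probes was below that of all probes. Every pairing of a control spot with a knockout spot was past 2-fold for 161 of the 281 higher probes (57.3%) and 135 of the 193 lower probes (69.9%). At the limit itself, XR_861446 was 2.004-fold higher and called, and XR_396543 was 1.998-fold higher and not called. On the lower side XR_874724 at 2.002-fold was called and XR_871658 at 1.995-fold was not.

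The increases and decreases described next were measured on both arrays. They were the largest differences whose spot pairs all lay past 2-fold and whose brighter level was above the median of measured XR probes. Names are those of the gene table, and neighbours are the nearest genes in it, at distances not given here. Among genes with a symbol, Gm39540 was the largest increase. Its 2 spots gave processed signals of 52.7 and 63.2 in the control and 431 and 636 in the knockout, and after scaling it was 12.4-fold higher (log2 3.63). Gm39540 overlaps Ribc1, a gene of ciliary microtubule structure, on the opposite strand.

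Gm40921, which lies between Snrnp48, a gene of the minor spliceosome, and Gm47978, had signals of 160 and 166 against 586 and 596 and was 4.94-fold higher. Gm40325, between Bri3bp and the acetoacetyl-CoA synthetase gene Aacs, had 178 and 174 against 599 and 608 and was 4.69-fold higher. Separation of the control spots from the knockout spots was a condition for being named, so it adds no support to these increases.

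Gm41447, between Lmln and Osbpl11, was 4.38-fold higher, with 69.1 and 69.9 in the control and 202 and 246 in the knockout. Gm33308 lies beside Pik3cg, the PI3-kinase gamma gene of leukocytes, and its probe XR_381434 was 4.23-fold higher (506 and 558 against 1742 and 1553). A second probe of that gene, XR_381433, read 202 and 207 in the control and 194 and 192 in the knockout, 1.29-fold higher after scaling, so the 2 predicted transcripts of the gene did not move alike. The next 6 increases by size were Gm32659, Gm32675, Gm39210, Gm33475, Gm36715 and Gm40451, from 3.69-fold down to 3.0-fold. Of these Gm39210 overlaps Dcaf15, Gm33475 overlaps the sialyltransferase gene St3gal6 and Gm36715 overlaps Trerf1, all on the opposite strand. Gm40451 lies between Parva and Tead1, a transcription factor of the Hippo pathway, and rests on a single usable knockout spot, 372 against 161 and 178.

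Gm32255 was the largest decrease among genes with a symbol. Its spots read 1054 and 1111 in the control and 46.7 and 31.7 in the knockout, and it was 20.6-fold lower (log2 -4.37). It overlaps Egr2, an immediate early zinc finger factor that also drives myelination in Schwann cells, on the opposite strand, and its start is the CpG-rich window printed above. Both control spots lay above 1000 units and both knockout spots under 100 units.

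C530043A13Rik, between Tnp1 and the focal adhesion gene Tns1, read 1068 and 1065 in the control and 90.3 and 70.2 in the knockout, 9.82-fold lower. Gm39718 lies beside Cnih3, an auxiliary subunit of AMPA receptors, and its 202 and 193 against 25.2 and 14.5 made it 7.59-fold lower. Gm39323 lies between Nectin1, an adhesion molecule of epithelia, and Thy1, a marker of fibroblasts and T cells, and was 7.05-fold lower (273 and 243 against 30.0 and 23.9). For the last 2 the knockout spots lay near background, where small shifts weigh more.

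Gm31657, which overlaps Tifab on the opposite strand, was 5.20-fold lower (489 and 462 against 64.9 and 69.1), and Gm45918, beside the hair cell channel gene Tmc1, was 4.97-fold lower (842 and 716 against 113 and 116). Gm39991, between Pard6b, a polarity gene, and Adnp, was brighter than the others, with 2568 and 2505 in the control and 451 and 531 in the knockout, 3.80-fold lower. Gm34639, Gm32772, Gm36372 and Gm33849 ranged from 4.33-fold to 3.69-fold lower. Gm34639, beside the transcription factor gene Sox4, was the least firm, since its log2 difference of -2.12 became -0.98 with no background correction and -0.73 with normexp, a model-based background correction. Gm32772 sits between the pregnancy-specific glycoprotein Psg29 and Ceacam5, and Gm36372 between Trib2 and the lipin gene Lpin1. Gm33849 is beside Map3k1, a kinase gene of the MAP kinase cascade.

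Accessions without a gene symbol reached equal or larger sizes. XR_887010 was the largest difference of any member measured on both arrays, with 2019 and 1886 in the control and 65.5 and 64.4 in the knockout, 22.0-fold lower. XR_881818 was 12.4-fold lower (695 and 773 against 53.6 and 35.2), and 4 more were between 8.19-fold and 11.7-fold lower. For those 4 the knockout spots lay near background, from 14.3 to 23.1. With normexp their log2 differences shrank to between -1.29 and -1.95. On the higher side XR_861777 was higher by 3.53 log2 units, from 275 and 383 in the control to a single usable knockout spot of 2744. XR_869138 was 10.2-fold higher (240 and 285 against 1896 and 2022), and 4 more were between 5.47-fold and 8.64-fold higher. No gene name stands behind these.

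Probes measured on 1 array only can have a bound in place of a fold. The bound sets the bright level against the other array's detection floor, the least level at which any probe there passed the background mark (-4.52 control, -4.19 knockout), or the dim probe's own level where that was higher. A probe whose bright level did not exceed that value has no bound but is still counted. The knockout floor was the higher one, so control-only probes with levels between the 2 floors have none. Control-only XR probes numbered 289 of 12137 (2.38%), against a background of 2.52% of all probes, and knockout-only ones 113 (0.931%), against 1.08%. Among NR probes the shares were 4.03% and 1.96%. Both XR shares were near the background. On either array, most members missing from the other were dim, since of XR probes with 2 usable spots and a control level from -4 to -3 the knockout array measured 75.2%, and from -2 to -1 it measured 99.3%.

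Gm35639 had the largest control-only bound, at least 28.0-fold. Its single usable control spot read 504, and its knockout spots, not well above background, read 3.33 and 5.05. The gene lies in the epidermal differentiation complex, starts divergently within 1000 bases of Ivl (involucrin, a protein of the cornified envelope) and overlaps the cornified envelope genes Lce6a and Lce1a1 and the sperm gene Smcp on the opposite strand. Gm35941, between Smad3 and Smad6 of the TGF-beta pathway, was at least 9.47-fold higher in the control (192 and 152 against 12.8 and 7.23). Gm39387, between the mitotic kinase gene Ttk and Bckdhb, reached at least 8.91-fold and probe XR_869076 of Gm31746, beside Npvf, at least 8.46-fold, while 2 unnamed accessions reached 11.1-fold and 8.10-fold. The other probe of Gm31746, XR_869077, was measured on both arrays and was 1.55-fold lower in the knockout. The knockout spots of these named control-only probes all read 12.8 or less and were not well above background. Those of Gm35639 and of the accession with the 8.10-fold bound lay under the XR lower quartile on that array (5.84), and the rest lay above it.

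In the knockout only, XR_888317 had a bound of at least 6.72-fold (69.0 and 72.5 against 3.18 and 3.0), and 4 more accessions had bounds from 4.79-fold to 4.0-fold. The knockout-only probes were dimmer than the control-only ones named above, and none of these had a spot above 100 units.

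The brightest predicted transcripts differed little between the arrays. Gm26535, beside Marcks, gave spots of 43028 and 38610 in the control and 41270 and 38685 in the knockout from its probe XR_871578, a log2 difference of 0.42 after scaling, and its probe XR_871577 gave 0.49. Gm31828 read 17278 and 16818 against 17220 and 16920 (0.45). Gm39852 (0.48), 1700055L01Rik (0.48) and Gm35147 (0.47) lay in the same narrow range. For these 5 the unscaled signals were nearly equal, and the difference was about the gap of 0.45 between the 2 arrays' scaling constants. Gm35393, between Zdbf2 and Adam23, was the exception at 0.90, with 7204 and 8345 in the control and a single usable knockout spot of 10603.

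Transcripts of 1 gene did not always agree. Of the 3481 genes, 278 held 2 or more XR probes, and 87 had 2 or more measured on both arrays. Their differences spanned a median of 0.29 within a gene, 30 of the 87 had probes of opposite sign, and 7 spanned more than 1 log2 unit. At least 1 probe was 2-fold higher in 6 genes and 2-fold lower in 3, but in none was every measured probe past the limit. In Nr6a1os, named as antisense to the nuclear receptor gene Nr6a1, the 3 probes were -0.92, -0.37 and -0.23. The 3 measured probes of Gm11802 were -0.72, -0.37 and -0.08, and a further probe of it was measured in the control only. Gm41033 ran from -0.11 to 0.72 and Gm39496 from -0.09 to 0.23, so both held probes of opposite sign. No gene of the table held both an XR and an NR probe, so predicted and curated transcripts of 1 locus could not be compared.

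Detection also differed with gene neighbourhood. Of 2739 XR probes whose gene overlaps no protein-coding gene, 48.9% were measured on both arrays, against 51.7% of all 3816 with an entry. Where the gene overlaps a protein-coding gene on the opposite strand only, 263 of 445 were measured (59.1%), and on the same strand only 36 of 51 (70.6%). Overlaps whose strand was not known had 59.8% of 403, and genes with a divergent coding start within 1000 bases 52.6% of 173. Median control levels followed the same order at the ends, from -3.84 without overlap to -1.97 on the same strand. Signal of a predicted transcript on the same strand cannot be told apart from that of the coding gene where they share exons. Of the measured probes with an entry, 4.15% were higher and 2.63% lower. The share higher was 6.22% of 241 for overlaps of unknown strand, 5.32% of 263 for opposite-strand overlaps, 3.81% of 1340 without overlap and 2.20% of 91 for divergent starts, while none of 36 same-strand probes was higher. These shares rest on 15, 14, 51 and 2 calls, and lower calls numbered 8, 7, 35 and 1 in that order, with 1 on the same strand.

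CpG content of the promoter went with detection as well. Genes with 12 or more CpG in the window had 60.2% of 319 probes measured on both arrays, against 51.0% of 1261 with 0 to 3 and 50.8% of 1217 with 4 to 11. The median control levels were -3.21, -3.70 and -3.62 in that order. By chromosome the share ran from 43.6% on chromosome 3 to 59.7% on chromosome 5. Promoters of genes with a measured probe held TATAAA in 15.6% and GGGCGG in 13.4%, and those of genes with every probe below background in 18.9% and 11.4%.

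Members with and without an entry in the gene table had nearly the same share of calls. With an entry, 51.7% were measured on both arrays, with 82 higher (4.15%) and 52 lower (2.63%). Without one, 57.3% of 8321 were measured, with 199 higher (4.17%) and 141 lower (2.96%). Unmatched accessions clustered by record number: in windows of 5000 sequence identifiers where under 1% matched, 6 of 5259 probes had an entry (0.114%), against 3810 of 6878 elsewhere (55.4%). Detection was 55.5% in those windows and 55.6% elsewhere, the median difference 0.14 and 0.13, and the shares higher 4.45% and 3.95%. The windows were chosen after the values were seen, and what sets them apart was not tested.

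Since mRNA probes have no names here, the surroundings of known genes were read through XR genes that overlap or flank them. A neighbour can differ apart from the gene it lies beside. Of the 3481 XR genes 1883 were measured, with 1208 above 0, 78 (4.14%) higher, 49 (2.60%) lower and a median of 0.14, while 78 (2.24%) passed the background mark in the control alone and 34 in the knockout alone. Known targets of miR-34a had 37 XR neighbours, of which 21 were measured, 14 above 0, 1 was higher, none lower and the median was 0.22. The median turned to -0.14 with spike-ins set equal, as did that of all XR genes, to -0.22. The higher one was Gm34628 beside Klf4, a pluripotency and differentiation factor, at 1.09 (38.2 and 41.8 against 63.8 and 60.8), and the list had no member past 2-fold higher with spike-ins set equal, with normexp or with no background correction. Gm37053, which overlaps the survival gene Bcl2, was at -0.22, but Gm41928, which flanks Bcl2, was at 0.33. Gm29868, which overlaps the cell cycle kinase gene Cdk6, was at -0.37, but Gm36548, which flanks Cdk6, was at 0.66. Several of the 21 share a locus, such as those beside Klf4, Sox2 and Mycn, so they do not describe 21 separate loci. Gm35255 beside Sox2 was seen in the control only.

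Neighbours of p53 pathway genes had 6 of 7 measured, none past 2-fold and a median of 0.13, led by Gm31974 beside the antiproliferative gene Btg2 at 0.74. Neighbours of ADAM family metalloproteinase genes had 5 of 11 measured with a median of 0.60. Among them 5830403F22Rik, which overlaps Adam12, was at 1.34, from a level of -1.11 to 0.23, and Gm31140 beside Adamts15 was seen in the control only. Beside immediate early genes 6 of 10 were measured, 4 above 0, with a median of 0.23. Gm12694 beside Jun was at 1.14 and Gm32255 across Egr2 at -4.37, so the ends of that list lay in opposite directions. With spike-ins set equal the medians of the p53 and immediate early lists turned to -0.22 and -0.12, and that of the ADAM list was 0.24. No member of the ADAM or immediate early list was then 2-fold higher, nor was any immediate early one with normexp or with no background correction.

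Lipid synthesis genes had 2 XR neighbours, both measured and 0 of them above 0, too few to describe the list. Of these Gm35787, a neighbour of the fatty acid elongase gene Elovl6, was at -0.78 (133 and 125 against 59.1 and 51.6). The list median was -0.43 with no background correction and -0.31 with normexp, smaller in size than in the main setting.

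Neighbours of cell type markers were read the same way, since whole gland can hold epithelium, fat, vessels, immune cells and adjoining skin in proportions not known here. Luminal epithelium had 7 of 11 measured, 6 above 0 and a median of 0.50, with Gm41268, which overlaps the prolactin receptor gene Prlr, at 1.49 (173 and 240 against 410 and 430). Beside the luminal keratin genes Krt8 and Krt18, Gm41404 was at -0.62 and Gm36026 at 0.69, so 1 locus pointed both ways. Among all 1883 measured XR genes 1208 were above 0, and with spike-ins set equal 4 of the 7 luminal neighbours were. Gm16246 beside the luminal factor Foxa1 was seen in the knockout only. Both basal neighbours were above 0, Gm35150 beside Mylk at 0.63 and the other at 0.09, and with spike-ins set equal 1 of the 2 was. Adipocyte markers had 3 of 8 measured, 2 above 0 and a median of 0.95. Gm33103 beside the lipase gene Lpl was at 1.16, a call lost with spike-ins set equal and with either change of background correction. Gm36301 beside Pparg was at 0.95 and Gm38779 beside Lep at -0.08, while Gm40300 beside Ppargc1a was seen in the control only.

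Keratinocyte markers had 9 neighbours, of which 3 were measured, none past 2-fold, with a median of -0.40, led by Gm35972 beside the epidermal keratin Krt1 at -0.76 (640 and 678 against 298 and 274). A further 3 of 9 (33.3%) were seen in the control only, against 2.24% of all XR genes: Gm35639, Gm30888, which overlaps the epidermal factor Grhl3, and Gm36560 beside the hair gene Hoxc13. Gm30888 read 83.5 and 83.3 in the control against 2.79 and 2.72, at least 4.62-fold. Gm36560 was near background on both arrays, with unscaled signals of 17.7 on both control spots against 11.3 and 12.8. After scaling its levels on the 2 arrays were nearly alike, and its control level lay under the knockout array's detection floor. It therefore has no bound, and its place in the control-only count shows no difference. Of the 3 measured neighbours 1, Gm35699 beside Lce1a1, was above 0, at 0.08. Whether the makeup of the 2 glands enters any of these differences was not tested.

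The remaining lists held few measured neighbours. Endothelial markers had 6 of 10, with 5 above 0, none past 2-fold and a median of 0.20. Gm35383 across Flt1 was at 0.997, just under the 2-fold limit, and Gm30446 beside Prox1 was at -0.68. Fibroblast markers had 2 of 10, Gm39635 beside the collagen gene Col3a1 at 0.25 and Gm39323 beside Thy1 at -2.82, and Gm34114 beside Dcn was seen in the control only. Nerve markers had 3 of 6 with a median of 0.46, but all 3 flank Ncam1 and so describe 1 locus, led by Gm38579 at 0.73. Gm34306 beside the leukocyte gene Ptprc was at 0.47, Gm32404 beside Cd4 at 0.09 and Gm39862 beside the muscle gene Ttn at -0.28. With spike-ins set equal the endothelial median was -0.16, the luminal one 0.15, the adipocyte one 0.60 and the nerve one 0.10.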

How the data were processed

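Each array file holds deposited intensity values, written by Agilent Feature Extraction (version 10.7 in the submitters' processing notes, 11.5.1.1 in the file headers). Its processed signal is background-subtracted and not scaled between arrays, per the file headers. The authors' deposited table holds log2 values that equal the mean log2 processed signal of a probe's unmarked spots minus 8.40 (control) or 7.95 (knockout), for 100% of probes within 0.001, so its scale, centring and direction are known. Genotypes came from the sample labels.

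Control spots and outlier spots were left out (36 and 20 XR spots), spots of 1 probe were combined as the mean of their log2 signals, and each array's 75th percentile over 97373 probes with usable spots on both arrays was subtracted. Names came from a RefSeq table of GRCm38.p6, while the array header names another build, so only names and neighbours were taken from it. A probe with no orientation for itself or its neighbour in the promoter table was classed as strand not known.

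Genes named were the 12 largest each way with a symbol and the 6 largest each way without. These had all spot pairs past 2-fold and a brighter level above the median of measured XR probes. Also named were the 6 largest bounds each way, the 6 brightest, genes with 3 or more measured probes, the largest neighbour in each of 15 lists and the probes beside the limit. Not all of these meet both conditions. Of those without a symbol at most 2 each way are printed. Other genes, such as Gm37053, Gm29868, Gm35787 and the neighbours seen on 1 array only, were chosen after their values were seen. Members and lists were chosen with earlier results of these data known. With 1 array per genotype no test was run. Spread between arrays of 1 genotype is unknown, and their number limits the precision. Some named members and their neighbours are not reported here. The calling of differences was tried on simulated data that held only noise between spots, with every spot above background. It does not test spread between arrays or animals, or calls near background. Python 3.11.15, pandas 2.3.3, R 4.3.3 and limma 3.58.1 (normexp, offset 50) were used. Alternatives covered scaling, background correction, dim-probe filters, outlier spots, spot averaging, the fold limit and the unit counted.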

Additional observations from a re-analysis of the deposited data

How the results depend on the processing

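No paired analysis was possible because each genotype has 1 array and the labels give no replicate numbers. The detection share of 55.6% became 62.0% when any spot above background sufficed, 54.1% counted by gene, 51.7% over members with a gene table entry and 57.3% over those without. The median difference of 0.14 reversed to -0.22 with spike-ins equal (9 probes, SD 0.18), and all other settings kept it above 0.

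Counts of 281 higher and 193 lower became 111 and 460 with spike-ins equal, 84 and 70 with normexp, and 128 and 91 with no background correction. They became 941 and 585 without a filter on dim probes, 59 and 31 with both levels above the median of measured probes, 979 and 530 at 1.5-fold and 30 and 38 at 4-fold. By gene they were 78 and 49, over members with an entry 82 and 52. Of 2 settings added after seeing the data, leaving out the identifier windows gave 151 and 110, and keeping calls past 2-fold in every spot pair gave 161 higher and 135 lower. Counts seen on 1 array only (289 control, 113 knockout) became 621 and 407 when any spot sufficed, 78 and 34 by gene, 89 and 39 with an entry, 167 and 67 without the identifier windows, with 74 knockout-only among members without an entry. Fewer members counted, looser limits and fewer dim probes change such counts by construction. For the rest the cause was not tested.

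Median, all-spot, quantile and loess scaling, the authors' table, outlier spots kept and the brightest spot left these counts within 1.5 times. The planned median of spots equals the mean for 2 spots, and the planned count by accession equals that by probe. None of 36 named differences and 12 bounds reversed under the alternative scalings, background corrections and treatments of spots. They were chosen for their large size, so this is no test of their direction. The dim-probe filters and the any-spot rule were not tried on them. Normexp changed the fold by over 1.5 times in 18 of the 36, Gm32255 from -4.37 to -3.13 and Gm39540 from 3.63 to 2.54, and in all 12 bounds, Gm35639 from -4.81 to -2.82. It left Gm34639 and 3 knockout-only bounds (XR_888636, XR_382402 and XR_865728) under 2-fold. Dim members near background are the least certain, and 1 array per genotype leaves the spread between animals unknown.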
